A study of Mus musculus with 4 samples.

Results

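The anaphase-promoting complex (APC/C) is the ubiquitin ligase that marks cyclins and other cell cycle proteins for destruction. Transcripts of 10 genes of this machinery were compared between mouse embryonic stem cells (ESCs) grown in serum and in 2i. These are the activators Cdc20 and Fzr1, the inhibitor Fbxo5, the ubiquitin-conjugating (E2) enzymes Ube2c and Ube2s, and the core subunits Anapc1, Anapc2, Cdc27, Cdc16 and Cdc23. The genes were taken by name, as rows of the normalized count table whose Ensembl identifiers GENCODE pairs with these symbols. All 10 had a row among the 14533 genes of the table, and all 10 were among the 13005 genes with enough reads to be tested.

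RNA was sequenced from sorted cells that had been adapted for over 20 days to one of 2 media, with 2 libraries per group. Serum ESCs grew in medium with fetal calf serum and LIF, and 2i ESCs grew in serum-free Ndiff medium with LIF, the GSK3 inhibitor CHIR99021 and the MEK inhibitor PD0325901. All 4 samples are labelled as late G1-phase, but the design text of the series has early G1-phase, and no cell line is given for them. The series calls the replicates biological but does not say whether they came from separate cultures, so p-values measure the spread between these libraries only. According to the methods, sorting by cell cycle phase used FUCCI reporters, fluorescent fragments of CDT1 and geminin, in stable lines of R1 ESCs. The geminin reporter is destroyed through the APC/C itself, so that such a gate depends on the activity of the complex described here.

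The APC/C is built on the large scaffold subunit Anapc1. Its catalytic centre pairs the cullin-like Anapc2 with the RING protein Anapc11, and Cdc27, Cdc16 and Cdc23 are TPR-repeat subunits that carry the activators and smaller partners. Cdc20 activates the complex in mitosis, when securin and cyclin B are removed, and Fzr1 (also called Cdh1) keeps it active from mitotic exit through G1-phase. Fbxo5 (also called Emi1) is an inhibitor that blocks the complex from late G1-phase to mitosis and that ESCs are known to hold at high levels. Ube2c places the first ubiquitins on a substrate, and Ube2s lengthens the chain.

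Genes that peak in mitosis often carry a CHR element (TTTGAA or TTCGAA) near a CCAAT box (CCAAT) in their promoter, and S-phase genes often carry an E2F site (TTTNNCGC). These letters were searched on both strands in the 250 bases before the RefSeq start site. A promoter was held for 9 of the 10 genes, all but Cdc23, and each was located in mm9 by its single exact match. Over 32851 promoters of this length, 17.1% held a CHR, 33.8% a CCAAT box and 4.28% an E2F site. The stretches of Cdc20 and Ube2c are shown because they hold both a CHR and CCAAT boxes, and that of Cdc27 because it was the only one of the 4 core subunits searched that had a CCAAT box. Each is printed 5′ to 3′ in the direction of its gene, and capitals mark CHR and CCAAT letters, of which TTCAAA and ATTGG are the forms read from the other strand.
Cdc20 (chr4:118109949-118110048, minus strand, the 100 bases before the start): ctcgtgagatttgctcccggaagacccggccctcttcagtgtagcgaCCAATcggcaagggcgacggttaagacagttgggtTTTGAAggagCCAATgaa
Ube2c (chr2:164595179-164595418, plus strand, from 250 to 11 bases before the start): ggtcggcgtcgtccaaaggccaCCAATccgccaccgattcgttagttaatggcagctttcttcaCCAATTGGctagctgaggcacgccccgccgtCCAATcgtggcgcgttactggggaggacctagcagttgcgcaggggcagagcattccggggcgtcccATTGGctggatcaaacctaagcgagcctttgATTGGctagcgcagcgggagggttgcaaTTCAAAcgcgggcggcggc
Cdc27 (chr11:104411935-104412044, minus strand, the 110 bases before the start): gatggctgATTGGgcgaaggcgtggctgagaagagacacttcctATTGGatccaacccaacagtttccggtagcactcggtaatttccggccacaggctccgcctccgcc

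In Cdc20 the CHR began 18 bases before the start, between CCAAT boxes at 53 and 8 bases. Ube2c had a CHR at 29 bases and 6 CCAAT boxes, of which the nearest lay 57 bases before the start and 2 overlapped as a palindrome. Fbxo5 held 3 CCAAT boxes, at 93, 55 and 25 bases, and no CHR. Ube2s held a CHR at 162 bases and no CCAAT box, and Fzr1 held 1 CCAAT box at 79 bases. Neither motif was found in the windows of Anapc1, Anapc2 and Cdc16, and the E2F letters were in none of the 9 windows. In GENCODE, the last 9 bases of the Cdc20 stretch and the last 21 of the Ube2c stretch lie in an exon of the gene. These bases hold the Cdc20 CCAAT box at 8 bases and the Ube2c CHR. The CCAAT boxes of Fbxo5 and Fzr1 also lie inside the gene spans given below. A match of letters is a description and does not show that a factor binds there.

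Transcripts of the mitotic activator Cdc20 and of the inhibitor Fbxo5 were about 3-fold more abundant in serum ESCs, whereas the estimate for the G1-phase activator Fzr1 was 1.39-fold higher in 2i ESCs with an error as large as the difference. Among the core subunits, Anapc1, Anapc2 and Cdc27 were higher in both serum libraries than in both 2i libraries, and Cdc16 and Cdc23 were at like levels in the 2 media. None of the 10 genes passed the test over all genes, limma with an adjusted p under 0.05 and a 2-fold change, which called 0% of the genes as higher in serum ESCs and 0.0154% as higher in 2i ESCs. By the unadjusted p under 0.05 with a 2-fold change, 2 members were higher in serum ESCs, Cdc20 and Fbxo5, beside 2.97% of all genes. No member was higher in 2i ESCs by these thresholds, beside 3.0% of all genes. DESeq2 on the whole reads recovered from the table called 1 member, Cdc20, as higher in serum ESCs, beside 0.561% of all genes in that direction, while edgeR called 0 members.

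Both serum libraries lay above both 2i libraries for 6 of the 10 genes, beside 20.5% of all genes tested. The reverse held for 1 gene, Fzr1, beside 19.4%, and the groups overlapped for Ube2c, Cdc16 and Cdc23. The median log2 fold change of serum over 2i was 0.74 over the 10 genes and 0.0047 over all genes. The median was 0.43 for serum replicate 1 against 2i replicate 1, and 1.04 for serum replicate 2 against 2i replicate 2. The whole reads recovered over the 14533 genes summed to 18939401 to 26570098 per library, of which each member took between 173 and 4281. Reads of genes without a row are not in these sums. The replicates deviated in part alike in the 2 media: across all genes, the difference between replicates 2 and 1 correlated between serum and 2i with r = 0.48, a description over genes that are not independent. In bulk RNA, fewer cells that express a gene and less of its RNA per cell cannot be told apart.

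**Figure D1:**
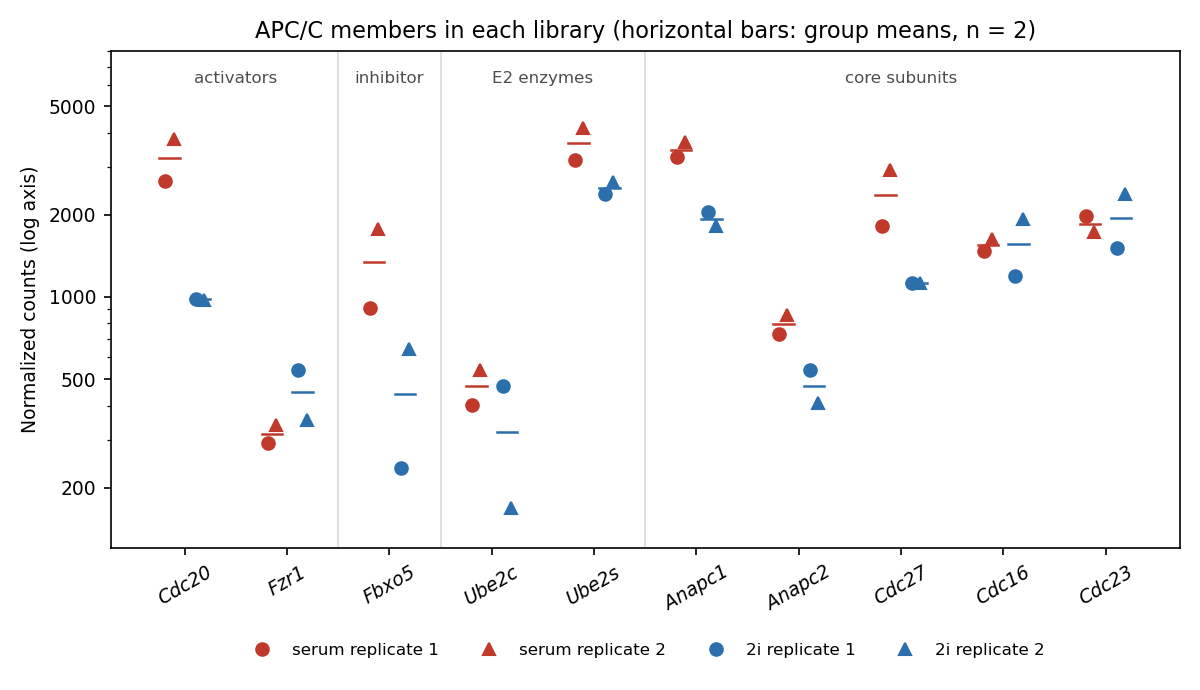
Normalized counts (log axis) of the 10 APC/C genes in each of the 4 libraries, with serum in red, 2i in blue, circles for replicate 1, triangles for replicate 2 and bars for the mean of 2 libraries. Cdc20, Fbxo5, Ube2s, Anapc1, Anapc2 and Cdc27 have both serum points above both 2i points, Fzr1 has the reverse order, and the points of Ube2c, Cdc16 and Cdc23 overlap.

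Cdc20 (ENSMUSG00000006398, mm9 chromosome 4, 118105506 to 118109957, minus strand) reached 2655 and 3788 normalized counts in the serum replicates (in the order 1, 2 here and below), against 982 and 978 in the 2i replicates. The lowest serum library was thus well above either 2i library, and the 2i replicates were nearly equal. The group means were 3222 ± 801 in serum ESCs and 980 ± 3.03 in 2i ESCs (SD, n = 2). The log2 fold change was 1.69 with a standard error of 0.44, a 3.23-fold difference (limma, unadjusted p 0.00746, adjusted p 0.753). Over the 4 ways to set a serum library against a 2i library, the difference ran from 1.43 to 1.95. DESeq2 gave the same log2 fold change, 1.69, with an adjusted p of 0.00451, and edgeR gave 1.68 with an adjusted p of 0.692, so that the call on Cdc20 depends on the tool. Of the 43-base words of its transcripts, 86.0% occur in no other gene, and reads from the remaining words could be divided with other genes.

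Fzr1 (ENSMUSG00000020235, chromosome 10, 80828967 to 80841261, minus strand) reached 292 and 338 normalized counts in the serum replicates, and 541 and 353 in the 2i replicates. Both 2i libraries were above both serum libraries, but 2i replicate 2 exceeded the higher serum library only narrowly. The log2 fold change of serum over 2i was -0.47 with a standard error of 0.47 (limma, adjusted p 0.809), and its 95% interval ran from -1.62 to 0.67. Leaving out 2i replicate 1 gave -0.17, and leaving out 2i replicate 2 gave -0.78. After correction for GC content and transcript length over 11818 genes the value was -0.06, so that a difference in Fzr1 is not established.

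The inhibitor differed by as much as Cdc20 but varied more. Fbxo5 (ENSMUSG00000019773, chromosome 10, 4540941 to 4547381, plus strand) reached 912 and 1779 normalized counts in the serum replicates, and 237 and 642 in the 2i replicates. In each medium replicate 2 was the higher library, by 0.96 on the log2 scale in serum and by 1.44 in 2i, and still the lower serum library was above the higher 2i library. The means were 1346 ± 613 in serum ESCs and 439 ± 287 in 2i ESCs (SD, n = 2), a 3.26-fold difference on the scale of the fit. The log2 fold change was 1.71 with a standard error of 0.64 and a 95% interval from 0.17 to 3.24 (limma, unadjusted p 0.0346, adjusted p 0.753). Leaving out 2i replicate 1 gave 0.99, and leaving out 2i replicate 2 gave 2.42.

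Neither E2 enzyme passed the test. Ube2s (ENSMUSG00000060860, chromosome 7, 4759616 to 4763942, minus strand) reached 3184 and 4161 normalized counts in the serum replicates, and 2390 and 2639 in the 2i replicates, which did not overlap. The log2 fold change was 0.54 with a standard error of 0.44 and a 95% interval from -0.54 to 1.61 (limma, adjusted p 0.778), and it was 1.15 after the GC and length correction. Ube2c (ENSMUSG00000001403, chromosome 2, 164595398 to 164604322, plus strand) reached 402 and 539 normalized counts in the serum replicates, and 471 and 168 in the 2i replicates. A single library, 2i replicate 2, stood below the other 3. The log2 fold change of 0.73, with a standard error of 0.62 (limma, adjusted p 0.780), was -0.02 without that library and 1.47 without 2i replicate 1. Exons of Ube2c share 592 bases, 22.8% of their length, with the antisense gene Tnnc2, which had no row. Of the 43-base words of Ube2c, 82.9% are its own.

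Of the 5 core subunits, 3 had both serum libraries above both 2i libraries, and in 2 the groups overlapped. Over all 14 subunits of the complex this held for 3 as well, near the 20.5% of all genes. Anapc1 (ENSMUSG00000014355, chromosome 2, 128435840 to 128513127, minus strand) reached 3253 and 3688 normalized counts in the serum replicates, and 2043 and 1818 in the 2i replicates. The replicates of each medium were close, and the log2 fold change was 0.85 with a standard error of 0.43 (limma, adjusted p 0.753). Anapc2 (ENSMUSG00000026965, chromosome 2, 25127998 to 25141435, plus strand) reached 732 and 856 normalized counts in the serum replicates, and 538 and 408 in the 2i replicates. Its log2 fold change was 0.76 with a standard error of 0.44 (limma, adjusted p 0.753). Cdc27 (ENSMUSG00000020687, chromosome 11, 104364059 to 104411934, minus strand) reached 1823 and 2915 normalized counts in the serum replicates, and 1127 and 1123 in the 2i replicates. As for Cdc20, the 2i libraries were nearly equal and the serum libraries were spread, with a log2 fold change of 1.03 and a standard error of 0.46, a 2.05-fold difference (limma, unadjusted p 0.0610, adjusted p 0.753). The GC and length correction moved Anapc1 down to 0.52 and Cdc27 down to 0.58, and it moved Anapc2 up to 1.05.

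Cdc16 (ENSMUSG00000038416, chromosome 8, 13757676 to 13781938, plus strand) reached 1478 and 1630 normalized counts in the serum replicates, and 1190 and 1932 in the 2i replicates, so that the 2i libraries enclosed the serum libraries. Its log2 fold change was 0.03, with a 95% interval from -1.07 to 1.14. Cdc23 (ENSMUSG00000024370, chromosome 18, 34790605 to 34811389, minus strand) reached 1990 and 1728 normalized counts in the serum replicates, and 1510 and 2394 in the 2i replicates. Here too the serum values lay between those of 2i, and the log2 fold change was -0.04, with a 95% interval from -1.14 to 1.07. These intervals allow a 2-fold difference in either direction. The sign of Cdc16 changed with the scaling, and the signs of both changed with a library left out. Exons of Cdc23 share 1259 bases, 13.3% of their length, with the antisense mitotic gene Kif20a, whose own log2 fold change was 1.64.

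**Figure D2:**
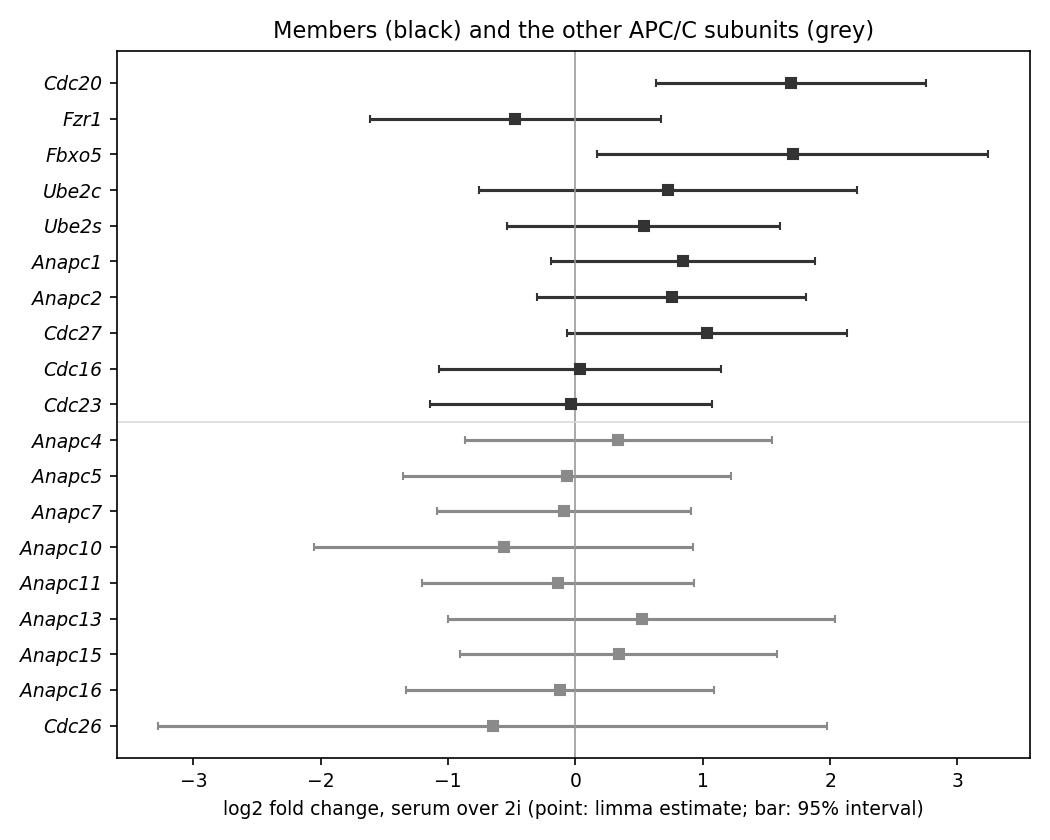
Log2 fold change of serum over 2i with its 95% interval from limma for the 10 APC/C genes (black) and the other 9 APC/C subunits (grey). The intervals of Cdc20 (0.63 to 2.75) and Fbxo5 (0.17 to 3.24) lie above 0, and those of the other 17 genes include 0.

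Ratios within a library do not depend on the scaling between libraries. Normalized counts were divided by the length of the longest coding transcript, and the per-kilobase values of 2 genes were then set against each other. The ratio of Cdc20 to Fzr1 was 15.5 and 19.1 in the serum replicates, and 3.10 and 4.72 in the 2i replicates. Transcripts of the mitotic activator exceeded those of the G1-phase activator in all 4 libraries, and the ratio was 4.50-fold higher in serum ESCs. Fbxo5 over Fzr1 was 4.92 and 8.29 in the serum replicates, and 0.690 and 2.87 in the 2i replicates, a 4.54-fold difference. Cdc20 and Fbxo5 were higher in both serum libraries, and Fzr1 was higher in both 2i libraries. The direction of both ratios to Fzr1 thus follows from the levels above and is not a separate result, and a difference in Fzr1 itself is not established. In 2i replicate 1 alone, the inhibitor was less abundant than the activator Fzr1. Fbxo5 over Cdc20 was 0.318 and 0.434 in the serum replicates, and 0.223 and 0.607 in the 2i replicates, so that the inhibitor and the mitotic activator kept about the same mean proportion (1.01-fold) and the 2i libraries enclosed the serum libraries. Ube2c over Ube2s was 0.0570 and 0.0585 in the serum replicates, and 0.0889 and 0.0287 in the 2i replicates, and thus also overlapped. No test was run on the ratios, since permuting 2 against 2 libraries exactly cannot give a two-sided p below 0.333.

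**Figure D3:**
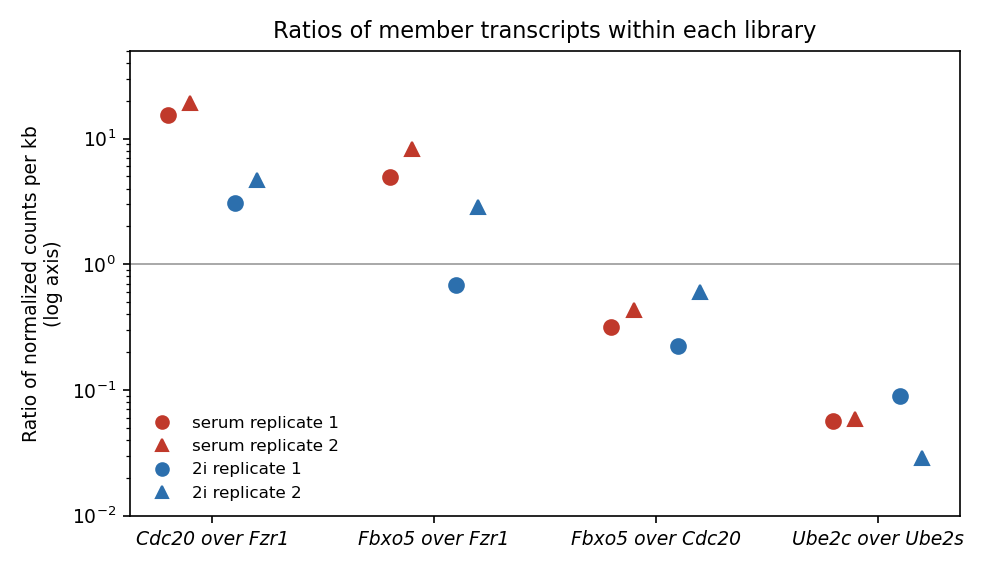
Ratios of per-kilobase normalized counts (log axis) between APC/C transcripts within each library, serum in red, 2i in blue, circles for replicate 1 and triangles for replicate 2, with a line at equal levels. The serum points lie above the 2i points for Cdc20 over Fzr1 (15.5 and 19.1 against 3.10 and 4.72) and for Fbxo5 over Fzr1, and overlap with them for Fbxo5 over Cdc20 and Ube2c over Ube2s.

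Among the core subunits, Cdc27 over Cdc16 was 0.523 and 0.759 in the serum replicates, and 0.402 and 0.247 in the 2i replicates. Anapc1 over Cdc23 was 0.755 and 0.986 in serum ESCs, and 0.625 and 0.351 in 2i ESCs. Both ratios were higher in each serum library than in each 2i library. Each sets a subunit with separate groups over a subunit without, so the direction follows from the fold changes above and is not a separate result. The cullin-like Anapc2 over its RING partner Anapc11 was 0.946 and 1.55 in serum ESCs, and 0.683 and 0.622 in 2i ESCs. Anapc2 had separate groups and Anapc11 did not, so this direction is not a separate result either.

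Per kilobase of transcript, Ube2s was the most abundant of the 10 genes in both media, with a mean of 3717 normalized counts per kilobase in serum and 2545 in 2i. It was followed in serum ESCs by Cdc20 (1797), Fbxo5 (694), Cdc16 (675), Cdc23 (450), Cdc27 (437), Anapc1 (388), Anapc2 (264), Ube2c (215) and Fzr1 (103). The per-library range of Fbxo5 overlapped those of Cdc16, Cdc23 and Cdc27. Ranges also overlapped for Cdc23 with Cdc27, for Cdc27 with Anapc1 and, narrowly, for Anapc2 with Ube2c. In 2i ESCs the order was Ube2s, Cdc16 (678), Cdc20 (547), Cdc23 (472), Fbxo5 (227), Anapc1 (216), Cdc27 (207), Anapc2 (157), Fzr1 (146) and Ube2c (146). Cdc20 was the second of the 10 genes in serum ESCs and the third in 2i ESCs, and Fbxo5 was the third and the fifth. With the union of exons as the length, Cdc20 was the second in both media, and Fbxo5 was the third and the fourth. In 2i ESCs the range of Cdc20, 545 to 548 normalized counts per kilobase, lay inside that of Cdc16, 517 to 840, and that of Cdc23, 365 to 579. The ranges of Fbxo5, Anapc1 and Cdc27 overlapped too, as did those of Anapc2 and Fzr1. That of Fbxo5, 122 to 331, also overlapped those of Anapc2, Fzr1 and Ube2c, and that of Ube2c reached Anapc1, Cdc27 and Anapc2. Fzr1 was among the lowest 2 in either medium, and its range in 2i ESCs, 116 to 177, overlapped that of Ube2c, 76.6 to 215. The levels depend on the transcript length used, since with that union Cdc23 in serum ESCs moved from 450 to 196.

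The other 9 subunits of the complex gave values on both sides of 0. Their median log2 fold change was -0.09, with 3 higher and 6 lower in serum ESCs, and none passed the test. None had both serum libraries above both 2i libraries, beside 20.5% of all genes. Anapc11, the RING subunit, had 832 and 593 normalized counts in the serum replicates and 846 and 705 in the 2i replicates. Anapc10, which helps the activator to hold substrates, had 347 and 463 in serum ESCs against 347 and 1013 in 2i ESCs. Cdc26, a small partner of Cdc16, had 1036 and 1554 in serum ESCs against 6838 and 580 in 2i ESCs, so that its log2 fold change of -0.65 rests on 2i replicate 1. Anapc7, a further TPR subunit, was narrowly higher in both 2i libraries, at 919 and 992 normalized counts against 908 and 886. Over all 14 subunits, 7 were higher and 7 lower in serum ESCs, and the median log2 fold change was -0.0013. Both serum libraries lay above both 2i libraries for 3 of the 14, near the 20.5% of all genes.

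Many proteins that the APC/C removes are also controlled at the level of RNA. Of 24 genes for known substrates, 23 were higher in serum ESCs, 21 had both serum libraries above both 2i libraries (20.5% of all genes did), and the median log2 fold change was 1.15. None passed limma's adjusted threshold, and 13 passed the unadjusted p with a 2-fold change (2.97% of all genes). DESeq2 called 5 as higher in serum ESCs (0.561% of all genes), which were Ccna2, Tpx2, Hmmr, Skp2 and Rrm2. Ccna2, the S-phase and G2-phase cyclin, had 3666 and 4262 normalized counts in the serum replicates, and 1467 and 948 in the 2i replicates. Its log2 fold change of 1.74 was close to that of Cdc20. Ccnb1, the mitotic cyclin that Cdc20 targets, had 3165 and 4280 in serum ESCs against 1758 and 2150 in 2i ESCs. Tpx2, a spindle assembly factor, had a log2 fold change of 2.19, and Hmmr, a spindle-associated protein, had 2.48. Skp2, the F-box protein that targets p27 and is itself removed through Fzr1, had 1129 and 1601 in serum ESCs against 485 and 477 in 2i ESCs. Pttg1 (securin) was the only substrate with a lower mean in serum ESCs, at 488 and 292 normalized counts against 480 and 619 in 2i ESCs, with a log2 fold change of -0.53 and overlapping groups.

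**Figure D4:**
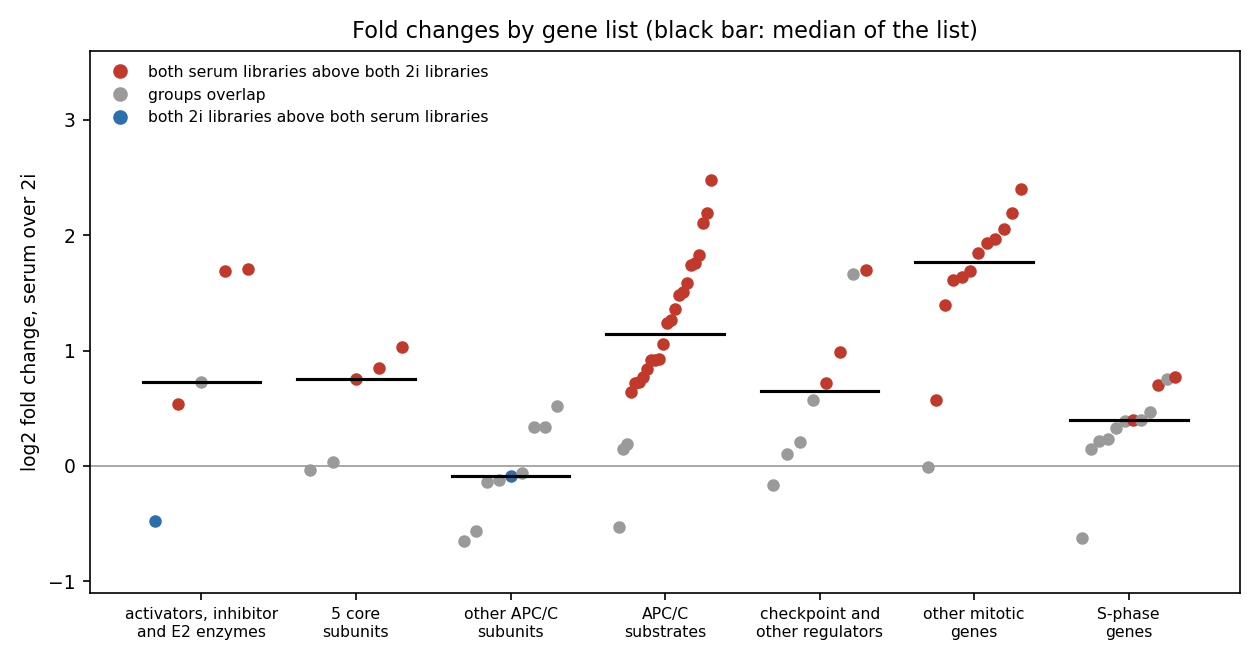
Log2 fold change of serum over 2i for each gene of 7 lists, sorted within a list, with black bars for the medians. Red points have both serum libraries above both 2i libraries, blue points the reverse, and grey points overlap. The substrates (median 1.15) and other mitotic genes (median 1.77) lie mostly above 0 and the other APC/C subunits (median -0.09) around 0.

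Of 9 genes listed as further regulators, 8 were tested, and Fbxo43, the meiotic relative of Fbxo5, had no row. Their median log2 fold change was 0.65, and 3 of the 8 had both serum libraries above both 2i libraries, beside 20.5% of all genes. The checkpoint proteins Mad2l1 and Bub1b, which hold Cdc20 inactive until the chromosomes are attached, had log2 fold changes of 0.99 and 1.69, and Bub3, of the same checkpoint, had -0.17. Bub1b had 3429 and 4908 normalized counts in the serum replicates, and 1471 and 1090 in the 2i replicates. It was the only gene of this list that DESeq2 called, beside 0.561% of all genes as higher in serum ESCs. The third with separate groups was Usp37, a deubiquitinase that opposes the APC/C on cyclin A, at 0.72.

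Genes of mitosis and of S-phase outside these lists were measured beside the members. The summed level of 12 mitotic genes was 28658 and 43040 normalized counts in the serum replicates, and 17039 and 12715 in the 2i replicates. Their median log2 fold change was 1.77, and 11 of 12 had both serum libraries above both 2i libraries. Cdc20 and Fbxo5, at 1.69 and 1.71, were close to this median. The summed level of 12 S-phase genes was 50534 and 57791 normalized counts in the serum replicates, and 42889 and 56036 in the 2i replicates, with a median log2 fold change of 0.40. Both serum libraries were above both 2i libraries for 3 of the 12, near the 20.5% of all genes. Of the sum in 2i replicate 1, 14732 came from Pola1 alone, a DNA polymerase subunit that had 2757 in 2i replicate 2. Mitotic transcripts thus differed in the same direction as most members although all libraries are labelled as G1-phase, and whether the number of cells from other phases in each sort contributes to the values of the members was not tested.

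The labelled cell type was checked against its markers. All 8 ESC markers were present, with a summed level of 59170 and 82592 normalized counts in the serum replicates and 69657 and 91753 in the 2i replicates. Of 7 primitive endoderm markers, 4 had a row, and their summed level was 72.0 and 109 in serum ESCs against 332 and 256 in 2i ESCs. Sox7, Dab2 and Foxa2 had no row. Of 6 fibroblast markers, 3 had a row, with a summed level of 271 and 235 in serum ESCs against 289 and 201 in 2i ESCs, and Col1a2, Col3a1 and Lum had none. The marker sums of the other cell types were less than 1% of those of the ESC markers in every library.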

How the data were processed

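RNA from 4 libraries, 2 of serum ESCs and 2 of 2i ESCs, was analysed. The authors removed ribosomal RNA, aligned reads to mm9 with Bowtie, estimated gene expression with MMSeq and scaled the counts with DESeq2. Versions are not given in the sources used here, nor is whether strand was kept. The deposited signal is thus the count of a gene over the size factor of its library (normalized counts). Each library's values were whole multiples of 1 step (1.00 and 0.972 in serum, 1.04 and 0.970 in 2i), so that 100% of values gave whole reads within 0.01. Gene names and positions came from GENCODE vM1 (mm9), and promoter sequences from RefSeq (GRCm38.p6), located in mm9 by exact match.

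The genes whose mean reached 50 normalized counts in serum or 2i were tested with limma (3.58.1, R 4.3.3) after taking log2(normalized count + 1), with a variance trend, Benjamini-Hochberg adjustment over 13005 genes, an adjusted p under 0.05 and a log2 fold change beyond 1. This scale understates changes of low genes. Prior degrees of freedom were 4.41. The fit was tested on simulated data. Alternatives were pseudocounts of 0.5 and 5, other filters and scalings, no trend, the replicate number as a block, each library left out, edgeR (4.0.16) and DESeq2 (1.42.0) on whole reads, and a GC content and length correction (mgcv 1.9.3). Length as the union of exons was added after the data were seen. Transcript uniqueness was counted in words of 43 bases, the read length.

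The members and gene lists were chosen with earlier results of these data known. Any member or gene of a list could be named, and for Cdc20, Fbxo5, Ube2c and Fzr1 also the 3 tested genes nearest in centred log2 values.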

Additional observations from a re-analysis of the deposited data

How the results depend on the processing

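Genes called over all 13005 depended on the setting. Higher in serum ESCs were 0 as reported, 44 with the replicate block, 73 with DESeq2, 1 with GC content, length and replicate block together, and 386 at the unadjusted p. Higher in 2i ESCs were 2 as reported, 4 at a mean of at least 200, 159 with the replicate block, 1 without trend, 0 with edgeR, 178 with DESeq2, 0 with the GC and length correction, 0 whichever library was left out, and 390 at the unadjusted p. Of the members, 1 was called by DESeq2 and 2 passed the unadjusted thresholds, and none passed with the replicate block, where the adjusted p of Cdc20 was 0.116. The replicate numbers are not stated to pair the samples, and with 2 pairs the correlation of replicate differences (0.48, or 0.312 after the GC and length correction) does not settle it.

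The median log2 fold change of the activators, inhibitor and E2 enzymes (0.73) was 1.15 with the GC and length correction, with or without the replicate block, and 0.51 to 0.99 with a library left out. That of the 5 core subunits (0.76) was 0.52 with this correction, with or without the block, and 0.56 to 0.93 with a library left out. That of the substrates (1.15) was 1.03 to 1.43 with a library left out. Ube2c ran from -0.017 (without 2i replicate 2) to 1.47. Cdc16 (0.03) was -0.11 with upper quartile scaling, -0.0022 with TMM, -0.14 with quantile normalization, -0.037 with edgeR, -0.026 with DESeq2, and -0.32 to 0.38 with a library left out. Cdc23 (-0.04) ran from -0.37 to 0.30. The causes were not tested. The other 7 members kept their sign under every setting run. The median over all genes moved to -0.14 with upper quartile scaling and to 0.12 at a mean of at least 200. With 2 libraries per group, the intervals of single genes span more than 2-fold.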

Other observations

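The tested genes nearest to a member over the 4 libraries, by Euclidean distance of centred log2 values, were found for 4 members. Nearest to Cdc20 were Zfp280b (distance 0.138), Whsc1 (0.151) and Pdk1 (0.151), against a median distance of 1.98 over all tested genes. Pdk1, a kinase that inhibits pyruvate dehydrogenase, had 3962 and 6298 normalized counts in the serum replicates, and 1676 and 1636 in the 2i replicates. Nearest to Fbxo5 were Amd2 (0.106), 2410002O22Rik (0.133) and Zfp600 (0.235), against a median of 2.30. Amd2 had 504 and 990 normalized counts in the serum replicates, and 143 and 365 in the 2i replicates. Nearest to Ube2c were Zhx3 (0.0593), Rfx7 (0.0989) and Patl1 (0.110), against a median of 1.70, and each was lowest in 2i replicate 2. Nearest to Fzr1 were Atf7ip (0.0585), A430046D13Rik (0.0687) and Aim1l (0.0993), against a median of 1.30, and each was highest in 2i replicate 1. None of these genes is in a list above, and with 4 libraries many genes come near any one pattern. They were picked for nearness over these same values, so the order of libraries that they share with a member, and their small distances, are not separate results. Within the 10 members the nearest pairs were Anapc1 with Anapc2 (0.187) and Cdc16 with Cdc23 (0.255), and the farthest was Fbxo5 with Fzr1 (2.67). These distances are without the GC and length correction, which moved the log2 fold changes of Anapc1 and Anapc2 apart, to 0.52 and 1.05.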
